A study of Mus musculus with 16 samples.

Results

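The elastic fibre and microfibril genes described here are 10 genes listed by name (Eln, Fbn1, Fbn2, Fbln1, Fbln2, Fbln5, Efemp1, Efemp2, Emilin1 and Mfap5) out of 25719 genes counted in RNA from mouse tail tendon fascicles, the thin collagen bundles teased out of a tail. They were matched by symbol to Ensembl identifiers, and each of the 10 was present once and had enough counts to be tested. The knockout group held 8 libraries from ScxCre;Vhlf/f mice, where Scx, a gene of the tendon lineage, drives the Cre recombinase that removes floxed Vhl sequence, and the wild type group held 8 libraries labelled WT. Vhl is needed for the oxygen-dependent breakdown of hypoxia-inducible factors (HIF), so its loss stabilises them at normal oxygen. Whether the wild type mice carried floxed Vhl or Cre, the age and sex of the mice and the number of mice behind a library are not given in the sources used here, so p-values measure the spread between these libraries. Each library averages over all cells of the dissected strands, and Scx-driven Cre acts only in cells of the Scx lineage.

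An elastic fibre has a core of cross-linked elastin laid down on a scaffold of microfibrils, which are bead-like filaments of fibrillin. Fibulins bind elastin, fibrillin and the cross-linking enzymes and help to place elastin on the scaffold, emilin lies at the border between core and scaffold, and microfibril-associated glycoproteins decorate the fibrillin filaments. In tendon, elastic fibres lie around the cells and between fascicles, where they take part in stretch and recoil, and microfibrils also hold latent growth factors of the TGF-beta family.

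Knockout libraries held 10488355 to 18753254 counts and wild type libraries 10792900 to 16379401. Vhl was between 7.51 and 10.9 CPM (counts scaled to a common library size, here with sizes adjusted by trimmed means of M-values, TMM) in the knockout and between 14.1 and 25.8 CPM in the wild type, so each library followed its label (log2 fold change -1.13, SE 0.113). Of 10 tenocyte markers all were tested and 7 were lower in the knockout, with Tnmd, Kera and Fmod among them, and 1, Comp, was higher (log2 fold change 0.39, adjusted p = 0.0177). Scx did not pass and ran from 56.2 to 1251 CPM in knockout libraries, against 54.5 to 1033 CPM in wild type libraries. Among all tested genes 22.7% were lower and 25.6% higher, which is the background for each marker list here. Wild type library 3 stood apart from its group, with 12.0% of its counts from type I collagen against 19.7% to 29.2% in the other wild type libraries and 7.70% to 18.4% in knockout libraries. The 15 skeletal muscle markers summed to 394 to 23672 CPM in knockout libraries, against 97.6 to 10560 CPM in wild type libraries, with knockout libraries 6, 7 and 8 and wild type library 5 highest, and 1 of the 15 passed the test. The 12 endothelial markers summed to 52.7 to 720 CPM in knockout libraries, against 32.1 to 57.1 CPM in wild type libraries, with 7 of 9 tested genes higher. Of the 12 mural and smooth muscle markers, which mark cells that also make elastic fibres, 7 of 10 tested genes were higher and 1 (Mylk) was lower. The list summed to 353 to 2329 CPM in knockout libraries, against 852 to 1331 CPM in wild type libraries. Mylk was most of the wild type sum, with a mean of 800 CPM there against 169 CPM in the knockout. The mean log2 CPM over tested genes of the list ran from 3.93 to 7.24 in knockout libraries, against 2.13 to 4.25 in wild type libraries. This mural marker level nearly separated the genotypes, so a fit with it as a covariate can hardly tell it apart from genotype. Within each group it was also highest in the libraries with most muscle RNA, knockout libraries 6, 7 and 8 and wild type library 5. Such a fit therefore does not concern mural cells alone. No marker of these 3 lists was at 0 in every library. Of 8 chondrogenic markers 5 were tested. Acan, Sox9 and Hapln1 were higher (log2 fold changes 3.34, 2.34 and 3.32) and Matn3 lower (-4.02), all with no overlap. Col2a1 did not pass, with a mean of 53.9 CPM in the knockout against 84.0 CPM in the wild type (-0.64, edgeR adjusted p = 0.152). The list summed to 99.7 to 249 CPM in knockout libraries, against 43.9 to 153 CPM in wild type libraries. The part of these markers in the changes of matrix genes below was not tested. In whole tissue, fewer cells of a type and less RNA per cell cannot be told apart.

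Of the 10 genes, 4 were higher in the knockout (Fbn2, Fbln2, Efemp2 and Mfap5), 3 were lower (Fbln1, Fbln5 and Efemp1) and 3 did not pass the threshold (Eln, Fbn1 and Emilin1). The threshold was an adjusted p under 0.05 in the quasi-likelihood test of edgeR with Benjamini-Hochberg adjustment over all 14803 tested genes, of which 48.3% passed, 25.6% as higher and 22.7% as lower. With 7 of 10, the share among these genes has to be read against that high background. The ranges of the genotypes were apart for 3 of the 10 genes, as they were for 19.4% of all tested genes. On the higher side this was 1 gene, Fbln2 (10.8% of all tested genes), and on the lower side 2 genes, Fbln1 and Fbln5 (8.61%). The median log2 fold change was 0.07 over the 10 genes and 0.02 over all tested genes. Scaling by total counts in place of TMM shifted the median over all tested genes to 0.32, and 85.4% of the genes past the threshold were then higher against 53.0% on the TMM scale. On total counts 9 of the 10 genes passed, 6 higher and 3 lower, where 65.4% of all tested genes passed, 55.9% as higher and 9.56% as lower. Values use TMM unless total counts are named. The plot of CPM by library shows the 10 genes side by side.

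**Figure D1:**
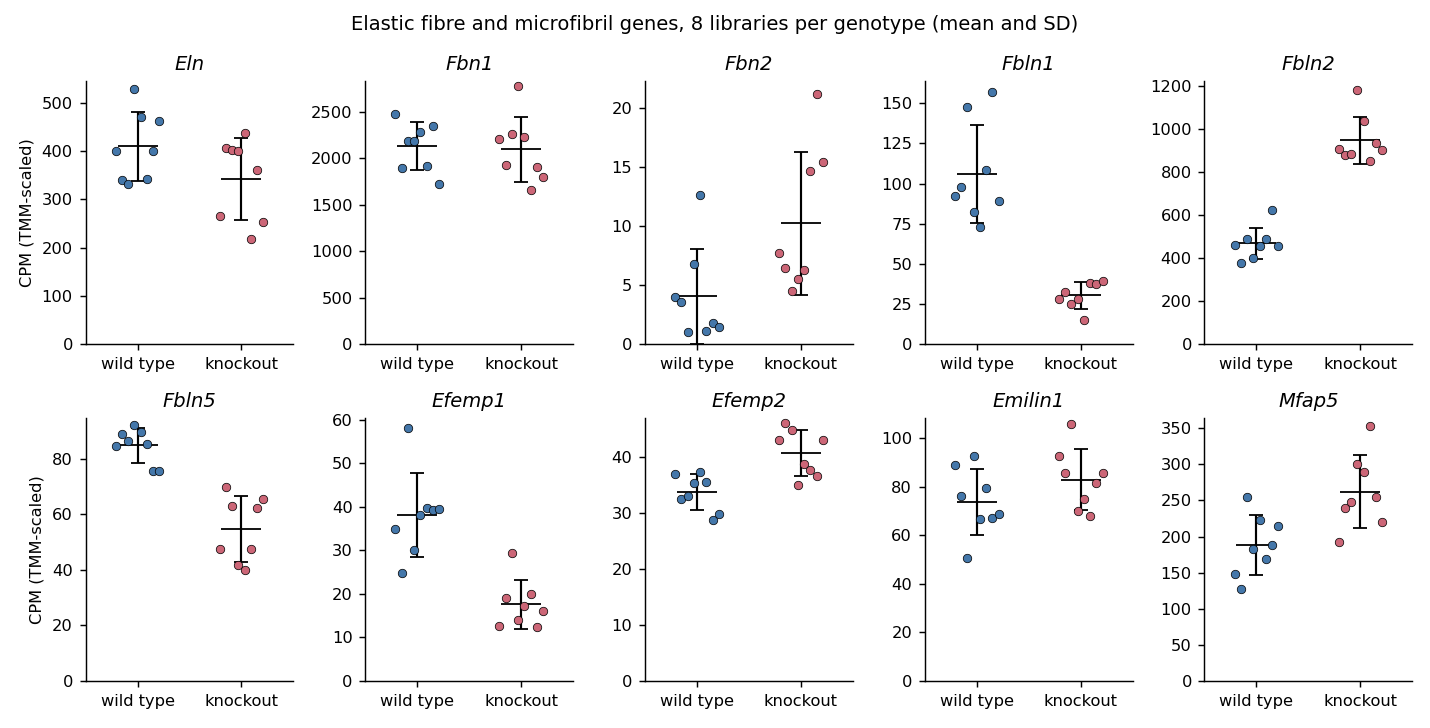
CPM on TMM-scaled library sizes (vertical axes, from 0, a separate scale per gene) of each of the 10 genes in 8 wild type (blue) and 8 knockout (red) libraries, with the mean and SD as black bars. The groups are apart for Fbln1, Fbln2 and Fbln5, nearly apart for Efemp1, and lie over each other for Eln, Fbn1 and Emilin1.

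Elastin and the main fibrillin, the materials of core and scaffold, showed no difference past the threshold. Eln (ENSMUSG00000029675, chromosome 5), which encodes elastin, stood at 217, 380 and 437 CPM in the lowest, median and highest knockout library and at 331, 400 and 529 CPM in the wild type ones. Knockout libraries 1, 6 and 8 lay below every wild type library, and the other 5 lay within the wild type range. On the log2 scale the fold change was -0.26 (SE 0.146, adjusted p = 0.155), and it was -0.067 without the 4 libraries richest in muscle RNA and -0.047 with the mural marker level as a covariate, and turned to 0.042 with total counts (adjusted p = 0.806). Fbn1 (ENSMUSG00000027204, chromosome 2), the fibrillin of adult microfibrils, stood at 1656, 2067 and 2776 CPM in the lowest, median and highest knockout library and at 1729, 2189 and 2482 CPM in the wild type ones. The groups overlapped: 1 knockout library lay above and 1 below the wild type range. In log2 units the difference was -0.02 (SE 0.108, adjusted p = 0.876). Scaled by total counts Fbn1 passed in the other direction, at 0.28 (adjusted p = 0.0373), where the median of all tested genes was 0.32. It was also above 0, without passing, with the mural marker level as a covariate (0.059) and without the 4 libraries richest in muscle RNA (0.12). Within a library, Eln gave 0.120 to 0.211 counts per count of Fbn1 in knockout libraries, against 0.151 to 0.267 in wild type libraries (difference of mean log2 ratio -0.25, two-sided exact permutation test, p = 0.113, n = 8; adjusted over 5 ratios, 0.113). Such a ratio does not depend on how libraries are scaled. Of the exon bases of Fbn1 in the annotation, 20.1% overlap Gm9913 on the other strand, and 3.30% of those of Eln overlap Gm30003, so both counts are uncertain where strand was not used.

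Emilin1 (ENSMUSG00000029163, chromosome 5), the glycoprotein at the border of core and scaffold, also did not pass. Knockout libraries had a lowest, median and highest level of 67.7, 83.5 and 106 CPM, against 50.8, 72.3 and 92.7 CPM in wild type libraries, with 1 knockout library above the wild type range. The log2 fold change was 0.17 (SE 0.112, adjusted p = 0.225). Under total count scaling it was 0.48 and passed (adjusted p = 9.61e-05).

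Fbn2 (ENSMUSG00000024598, chromosome 18), the fibrillin most abundant in developing tissue, was the least abundant and most variable of the 10 genes. It had 53 to 438 counts in knockout libraries, against 13 to 132 in wild type libraries. In order of lowest, median and highest library, the level was 4.53, 7.12 and 21.2 CPM in knockout libraries, against 1.01, 2.67 and 12.7 CPM in wild type libraries. All 8 knockout libraries lay above the wild type median, and 3 lay above the whole wild type range. These were knockout libraries 6, 7 and 8, at 14.7, 21.2 and 15.5 CPM, which were also the 3 libraries with the highest summed skeletal muscle markers. In the wild type, library 5 had the highest Fbn2, at 12.7 CPM, and the most muscle marker RNA. Mural and endothelial markers peaked in the same libraries. Knockout libraries 6, 7 and 8 had mural marker levels of 6.73, 7.24 and 7.04 and endothelial sums of 466, 720 and 465 CPM. Wild type library 5 was highest in its group for both, at 4.25 and 57.1 CPM. Which of these markers goes with Fbn2 was not tested. On the log2 scale the fold change was 1.35 (SE 0.522, adjusted p = 0.0441). It was 1.10 without those 4 libraries (adjusted p = 0.0365), 0.72 when the muscle marker level was a covariate (adjusted p = 0.116) and -0.42 when the mural marker level was (adjusted p = 0.588). Without the expression filter it missed the threshold at 1.34 (adjusted p = 0.0590). Leaving out any 1 of knockout libraries 1, 6, 7 and 8 or of wild type libraries 1, 2, 3, 6, 7 and 8 took the adjusted p past 0.05, and over all 16 libraries left out in turn the log2 fold change lay between 1.10 and 1.85 and the adjusted p between 0.00421 and 0.0964. Within a library Fbn2 gave a median of 0.00346 counts per count of Fbn1 in knockout libraries, against 0.00126 in wild type ones (difference of mean log2 ratio 1.68, exact permutation test, p = 0.0110, n = 8; adjusted over 5 ratios, 0.0148), with overlap between the groups. Since Fbn1 did not pass and differed little, this ratio largely repeats the difference of Fbn2 itself.

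**Figure D2:**
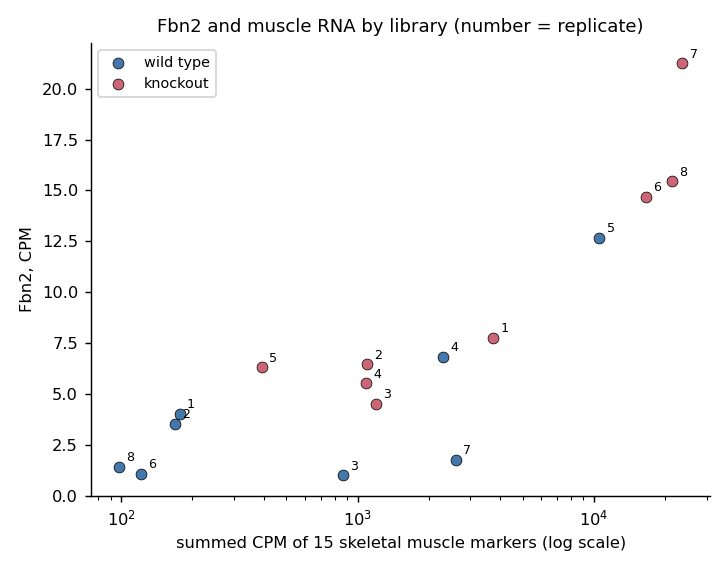
Fbn2 in CPM (vertical axis) against the summed CPM of 15 skeletal muscle markers (horizontal axis, log scale) in 8 wild type (blue) and 8 knockout (red) libraries, numbered by replicate. The 4 libraries with the most muscle marker RNA hold the 4 highest Fbn2 values, between 12.7 and 21.2 CPM. Mural and endothelial markers, not drawn here, also peaked in knockout libraries 6, 7 and 8.

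Mfap5 (ENSMUSG00000030116, chromosome 6), a glycoprotein that binds fibrillin and is abundant in fibroblasts around vessels and tissue sheaths, was 1.39-fold higher in the knockout. The lowest, median and highest knockout libraries stood at 192, 251 and 353 CPM, and the wild type ones at 127, 185 and 254 CPM. Above the highest wild type library, library 3 at 254.3 CPM, lay 4 knockout libraries, of which library 7 was barely above, at 254.5 CPM. All 8 knockout libraries lay above the wild type median. In log2 units the difference was 0.48 (SE 0.137, adjusted p = 0.00737), between 0.40 and 0.55 with any 1 library left out, and 0.32 with the mural marker level as a covariate, where it did not pass (adjusted p = 0.304). Against Fbn1 in the same library, the mean log2 ratio of Mfap5 was higher by 0.52 in the knockout (exact permutation test, p = 0.0118, n = 8; adjusted over 5 ratios, 0.0148). Without the 4 libraries richest in muscle RNA that difference was 0.37 (adjusted p = 0.117, exact permutation test). Since Fbn1 did not pass and differed little, this ratio largely repeats the difference of Mfap5 itself.

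All 3 genes whose libraries did not overlap between genotypes were fibulins, and they went in both directions. Fbln1 (ENSMUSG00000006369, chromosome 15), a fibulin found within the elastin core and in basement membranes, was 3.49-fold lower in the knockout. Knockout libraries had a lowest, median and highest level of 14.9, 30.2 and 39.1 CPM, against 73.2, 95.1 and 157 CPM in wild type libraries, so every knockout library was below every wild type library by a wide gap. The log2 fold change was -1.80 (SE 0.199, adjusted p = 1.02e-06). It lay between -2.26 and -1.51 over all alternatives, each past the threshold. Fbln2 (ENSMUSG00000064080, chromosome 6), a fibulin of similar build that binds fibrillin, fibronectin and basement membrane proteins, was 2.02-fold higher. In order of lowest, median and highest library, the level was 851, 904 and 1182 CPM in knockout libraries, against 376, 458 and 623 CPM in wild type libraries, again with no overlap. On the log2 scale the fold change was 1.02 (SE 0.0985, adjusted p = 5.98e-08) and lay between 0.96 and 1.32 over all alternatives. Since each of these fibulins alone separated the genotypes, in opposite directions, their ratio had to separate them too, and it is given as a description. A library held 22.3 to 69.2 counts of Fbln2 per count of Fbln1 in knockout libraries, against 3.30 to 6.23 in wild type libraries (7.13-fold, difference of mean log2 ratio 2.83).

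The short fibulins, which guide elastin onto microfibrils, also split. Fbln5 (ENSMUSG00000021186, chromosome 12), needed for the assembly of elastin into fibres, was 1.55-fold lower. The lowest, median and highest knockout libraries stood at 40.04, 55.0 and 69.8 CPM, and the wild type ones at 75.5, 85.8 and 92.1 CPM, with no overlap. In log2 units the difference was -0.63 (SE 0.107, adjusted p = 6.64e-05), and it was -0.33 with total counts (adjusted p = 0.0146). Efemp1 (ENSMUSG00000020467, chromosome 11), a fibulin tied to fascia and to the retina, was 2.17-fold lower. Knockout libraries had a lowest, median and highest level of 12.3, 16.7 and 29.3 CPM, against 24.9, 38.7 and 58.1 CPM in wild type libraries. Knockout library 3, at 29.3 CPM, and wild type library 2, at 24.9 CPM, were the only libraries that made the groups overlap. The log2 fold change was -1.12 (SE 0.182, adjusted p = 5.88e-05) and lay between -1.26 and -0.84 over all alternatives. Efemp2 (ENSMUSG00000024909, chromosome 19), which brings lysyl oxidase to elastin, was slightly higher, by 1.21-fold. In order of lowest, median and highest library, the level was 35.03, 40.9 and 46.1 CPM in knockout libraries, against 28.7, 34.1 and 37.4 CPM in wild type libraries, and 6 knockout libraries lay above the wild type range. On the log2 scale the fold change was 0.27 (SE 0.0735, adjusted p = 0.00476). Its annotated exons overlap those of Mus81 on the other strand over 4.57% of their bases. The ratio of Efemp1 to Efemp2 in a library was 0.292 to 0.655 in knockout libraries, against 0.767 to 1.76 in wild type libraries, so Efemp1 gave fewer counts than Efemp2 in every knockout library (difference of mean log2 ratio -1.40, exact permutation test, p = 0.000155, the smallest this design allows, n = 8; adjusted over 5 ratios, 3.89e-04). Since both genes had passed in opposite directions in these same libraries, a small p for their ratio largely follows from that. This ratio too is given as a description.

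**Figure D3:**
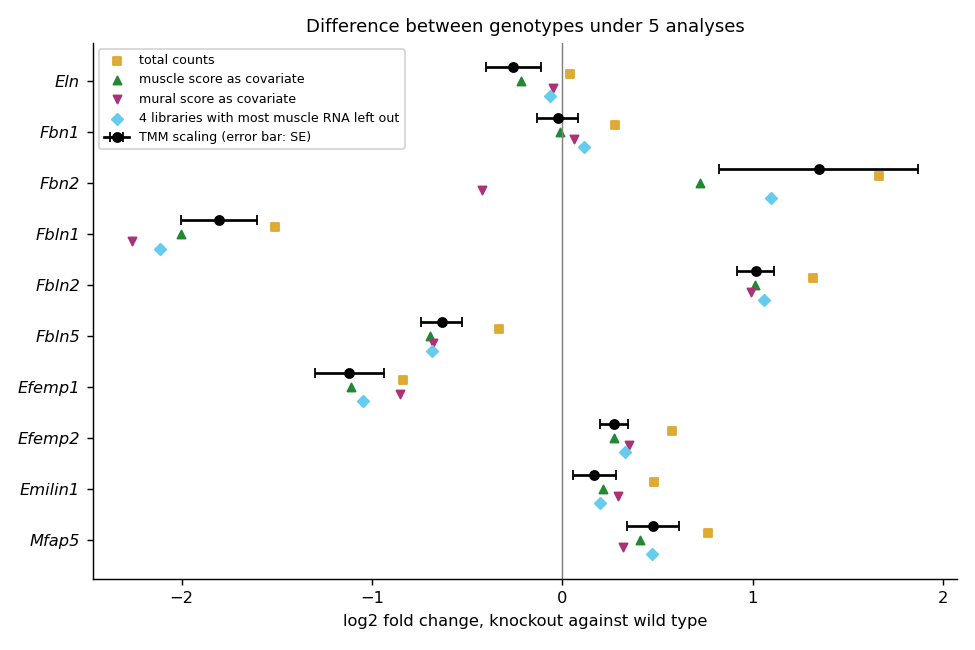
Log2 fold change of each gene between knockout and wild type (horizontal axis) on the TMM scale with its SE (black), with total counts (yellow squares), with the muscle (green) or mural (purple) marker level as a covariate, and without the 4 libraries richest in muscle RNA (light blue). Fbln1, Fbln5 and Efemp1 stay below 0 and Fbln2, Efemp2, Emilin1 and Mfap5 above 0 in all 5, whereas Eln, Fbn1 and Fbn2 change sign.

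The promoter letters of the 4 fibulins with the largest differences are shown because these genes moved in opposite directions where Vhl, which acts on HIF, was deleted. HIF binds DNA at a core of ACGTG or GCGTG. RefSeq (build GRCm38.p6) gave a promoter window for 7 of the 10 genes, and the 250 bases before the most upstream start are printed 5′ to 3′ on the strand of the gene, with capitals where either core is found on either strand, so that CACGT and CACGC mark the opposite strand and CACGTG holds the core on both. The windows are chr15:85205699-85205948 on the plus strand for Fbln1, chr6:91212514-91212763 on the plus strand for Fbln2, chr12:101819120-101819369 on the minus strand for Fbln5 and chr11:28852955-28853204 on the plus strand for Efemp1.
Fbln1: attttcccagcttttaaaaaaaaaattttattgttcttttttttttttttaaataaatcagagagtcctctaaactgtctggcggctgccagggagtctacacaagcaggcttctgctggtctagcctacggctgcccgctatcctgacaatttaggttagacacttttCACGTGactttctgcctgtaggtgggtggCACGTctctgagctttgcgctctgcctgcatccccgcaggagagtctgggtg
Fbln2: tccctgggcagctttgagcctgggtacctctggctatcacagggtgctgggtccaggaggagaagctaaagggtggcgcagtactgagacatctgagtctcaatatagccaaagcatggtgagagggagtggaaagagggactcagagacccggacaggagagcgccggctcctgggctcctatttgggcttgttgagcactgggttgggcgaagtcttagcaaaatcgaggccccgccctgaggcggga
Fbln5: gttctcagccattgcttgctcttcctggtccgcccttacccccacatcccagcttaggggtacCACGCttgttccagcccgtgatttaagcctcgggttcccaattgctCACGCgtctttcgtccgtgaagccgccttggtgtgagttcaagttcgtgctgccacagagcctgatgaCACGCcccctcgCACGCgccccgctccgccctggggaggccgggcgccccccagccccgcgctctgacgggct
Efemp1: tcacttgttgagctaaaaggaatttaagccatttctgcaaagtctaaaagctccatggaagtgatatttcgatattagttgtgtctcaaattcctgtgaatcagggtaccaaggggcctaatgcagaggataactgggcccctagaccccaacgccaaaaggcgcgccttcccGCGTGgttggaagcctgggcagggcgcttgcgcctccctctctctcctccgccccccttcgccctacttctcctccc
Among genes that fell, the window held the core 3 times for Fbln1, counting both strands, 4 times for Fbln5 and 1 time for Efemp1. Among genes that rose, it held 2 for Efemp2 and none for Fbln2. Of genes that did not pass, Emilin1 held 1 and Fbn1 none. Windows of further starts held 4 for Fbln1 and none for Fbln5 or Efemp2. All but the GCGTG of the further Fbln1 window have the same letters and spacing as the matches of its first window. They appear to be the same sites, so the counts of these windows do not add up. Of all 32851 windows of this length in the table, 38.6% held at least 1 core. These are matches of letters in a short window and say nothing of binding.

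Compared per kilobase of annotated exon, the genes kept much the same order in both genotypes at the top and changed places lower down. The length joined all annotated exons of a gene and was not that of the transcripts in use. The order of genes and their shares therefore depend on the annotation. In the wild type, Fbn1 was highest at 176 ± 21.2 CPM per kb, followed by Fbln2 at 73.5 ± 11.6, Mfap5 at 52.4 ± 11.5, Eln at 50.6 ± 8.90, Fbln1 at 24.3 ± 6.99, Efemp1 at 18.7 ± 4.76, Emilin1 at 14.9 ± 2.73, Fbln5 at 12.3 ± 0.895, Efemp2 at 8.88 ± 0.850 and Fbn2 at 0.307 ± 0.303 (SD, n = 8). Mfap5 and Eln overlapped in this order, with Mfap5 higher in 5 of 8 libraries, as did Efemp1 and Emilin1, also in that order in 5 of 8. In the knockout, Fbln2 reached 149 ± 17.2 CPM per kb and its range overlapped that of Fbn1 at 173 ± 29.0, although Fbn1 was higher in all 8 libraries. Fbln1 went from the fifth place to the ninth, at 6.95 ± 1.86 CPM per kb, and overlapped Fbln5 at 7.91 ± 1.69. Of the summed level of the 10 genes per kilobase, Fbln2 held 30.4% ± 1.52 in knockout libraries, against 17.0% ± 1.85 in wild type ones, Fbn1 35.2% ± 2.97 and 40.7% ± 3.11, and Fbln1 1.46% ± 0.482 and 5.61% ± 1.38 (SD, n = 8). Relative spread between libraries was smallest for Fbln5 in the wild type, with a coefficient of variation of 7.30%, and largest for Fbn2 there, at 98.7%. In the knockout the spread of Fbln5 was 21.4% and the smallest was that of Efemp2, at 10.1%.

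**Figure D4:**
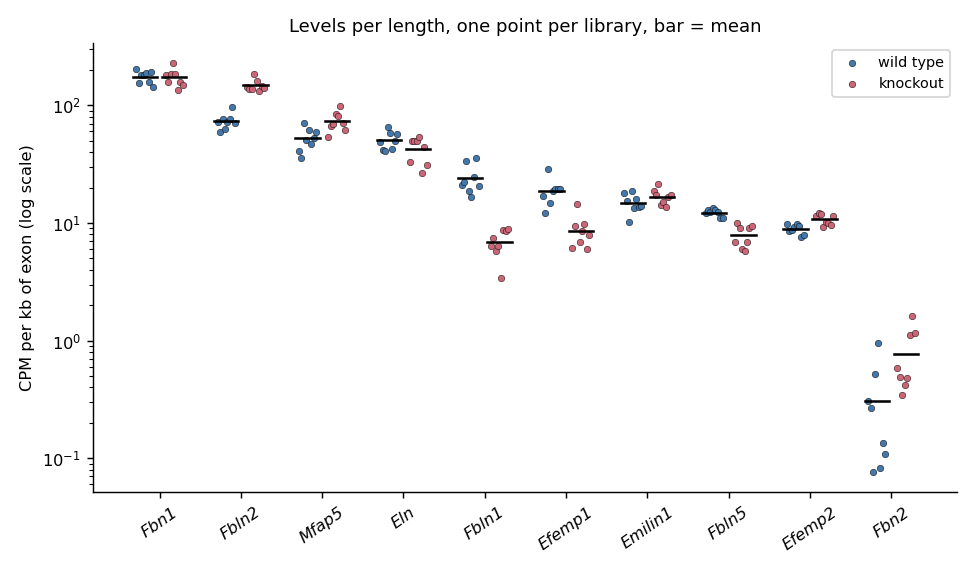
Level per kilobase of annotated exon (vertical axis, log scale) of the 10 genes in 8 wild type (blue) and 8 knockout (red) libraries, in order of the wild type mean, with black bars for the means. Fbn1 leads in both groups at 176 and 173 CPM per kb, and Fbln1 falls from 24.3 to 6.95.

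Other genes of the same pathway, taken from 7 lists by role, also moved both ways. Of 61 listed genes, 55 were tested, 18 were higher and 16 lower in the knockout, and 21 did not pass, against the background of 48.3% given above, and their median log2 fold change was -0.08. With total counts 25 were higher and 11 lower, where 65.4% of all tested genes passed. Among 16 partners of fibrillin microfibrils, 4 were higher and 6 lower, and the latent TGF-beta binding proteins went separate ways. Ltbp1, which ties latent TGF-beta to microfibrils, fell from 461 ± 81.4 to 88.0 ± 9.97 CPM (SD, n = 8; log2 fold change -2.39, SE 0.109, adjusted p = 1.25e-12). Ltbp2, which binds fibrillin and does not bind TGF-beta, rose from 101 ± 22.2 to 338 ± 76.5 CPM (1.74, SE 0.144, adjusted p = 7.98e-09). Ltbp4 fell from 760 ± 97.8 to 327 ± 26.7 CPM (-1.22, adjusted p = 5.03e-10), with no overlap. Ltbp3 did not pass (0.02, adjusted p = 0.875). Mfap4, which binds elastin and fibrillin, fell from 105 ± 32.3 to 12.8 ± 6.32 CPM (-3.03, adjusted p = 8.59e-07), and Thsd4, which promotes fibrillin assembly, rose from 7.76 ± 2.28 to 44.2 ± 10.8 CPM (2.50, adjusted p = 4.14e-09). None of Ltbp1, Ltbp2, Mfap4 and Thsd4, which were named for the largest changes of the list, overlapped between the groups. Of the 16 partners, 4 higher and 4 lower genes showed no overlap, where 19.4% of all tested genes did. The annotated exons of Mfap4, Ltbp2 and Ltbp3 overlap genes on the other strand.

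Among 6 genes of elastin cross-linking, 2 were higher and 3 lower. Lox, the main lysyl oxidase, fell from 3511 ± 646 to 2465 ± 714 CPM (SD, n = 8; log2 fold change -0.51, adjusted p = 0.0125) and did not pass with total counts, at -0.20, with the mural marker level as a covariate, at -0.30, or without the 4 libraries richest in muscle RNA, at -0.38. Loxl1, the lysyl oxidase needed to renew elastic fibres, rose to 77.1 ± 14.2 CPM from 39.1 ± 4.77 (0.98, SE 0.104, adjusted p = 1.89e-07), with no overlap. Loxl4 fell from 147 ± 44.4 to 84.4 ± 18.8 CPM (-0.80, adjusted p = 0.00252), and did not pass with the mural marker level as a covariate (-0.31). Atp7a, which loads lysyl oxidases with copper, was slightly higher, by 0.19 (adjusted p = 0.0204). Of 6 genes of precursor processing and folding, Hsp90b1 was higher (0.67, adjusted p = 2.71e-04), Fkbp14 (-1.001, adjusted p = 1.79e-05) and Bmp1 (-0.57, adjusted p = 1.56e-04) were lower, and the other 3, with Furin among them, did not pass. With the mural marker level as a covariate Bmp1 did not pass either (-0.40, adjusted p = 0.0819).

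Proteases that can cut elastin or its scaffold split evenly, with 2 higher and 2 lower of 5 tested. Mmp14, a membrane-bound metalloproteinase, rose from 112 ± 12.4 to 233 ± 41.0 CPM (SD, n = 8; log2 fold change 1.05, adjusted p = 5.70e-08), and Ctss rose by 0.49 on the log2 scale (adjusted p = 0.00403). Ctsl fell from 524 ± 95.2 to 176 ± 26.2 CPM (-1.57, adjusted p = 1.82e-09) and Ctsk from 343 ± 61.5 to 210 ± 33.0 CPM (-0.71, adjusted p = 4.34e-05). All of Ctss, Ctsl and Ctsk encode lysosomal cathepsins. With the mural marker level as a covariate Ctsk (-0.33, adjusted p = 0.123) and Ctss (0.53, adjusted p = 0.0683) did not pass. The elastases Mmp12 and Elane and also Mmp7, Mmp9 and Ctsg had too few counts to be tested. Among 16 receptors and pericellular partners, 8 were higher and 2 lower. Fn1, the fibronectin on which fibrillin assembles, rose to 4206 ± 702 CPM from 1414 ± 201 (1.57, SE 0.120, adjusted p = 2.00e-09), and Itga8, an integrin subunit that binds fibronectin, from 3.51 ± 1.203 to 15.7 ± 5.03 CPM (2.16, adjusted p = 1.51e-07), both with no overlap. The annotated exons of Lox, Fkbp14, Hsp90b1, Ctsl, Fn1 and Itga8 overlap those of other genes, so their counts are uncertain there. The overlap was largest for Ctsl, at 32.9% of exon bases, in part with the pseudogene Gm49230 on the same strand. For Hsp90b1 it was 15.7%, also in part on the same strand. It was 0.628% for Lox, 2.50% for Fn1, 5.01% for Fkbp14 and 5.05% for Itga8. On the log2 scale Itgb5 fell by 0.54 (adjusted p = 1.91e-05), and the proteoglycan Dcn by 0.42 (adjusted p = 0.0185), which did not pass with total counts (-0.12), with the muscle marker level as a covariate (-0.29) or without the 4 libraries richest in muscle RNA (-0.34), and turned to 0.03 with the mural marker level.

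In the smaller families, 1 of 3 tested relatives of Emilin1 was higher: Mmrn2, a protein of endothelial cells, rose from 1.08 ± 0.212 to 9.72 ± 8.19 CPM (SD, n = 8; log2 fold change 3.17, adjusted p = 1.34e-04), and was 0.41 with the mural marker level as a covariate (adjusted p = 0.462). Its rise stood beside that of the endothelial markers, and their part in it was not tested. Of 3 other fibulins and hemicentins, Hmcn2 was lower (-0.57, adjusted p = 0.0389), and missed the threshold with total counts (-0.29), with the mural marker level as a covariate (-0.74) and without the 4 libraries richest in muscle RNA (-0.52). It did not pass when any 1 of knockout libraries 2, 4, 5, 6 and 8 or wild type libraries 1, 2, 3 and 5 was left out, with a log2 fold change between -0.66 and -0.43 over all 16 and an adjusted p of up to 0.0851.

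**Figure D5:**
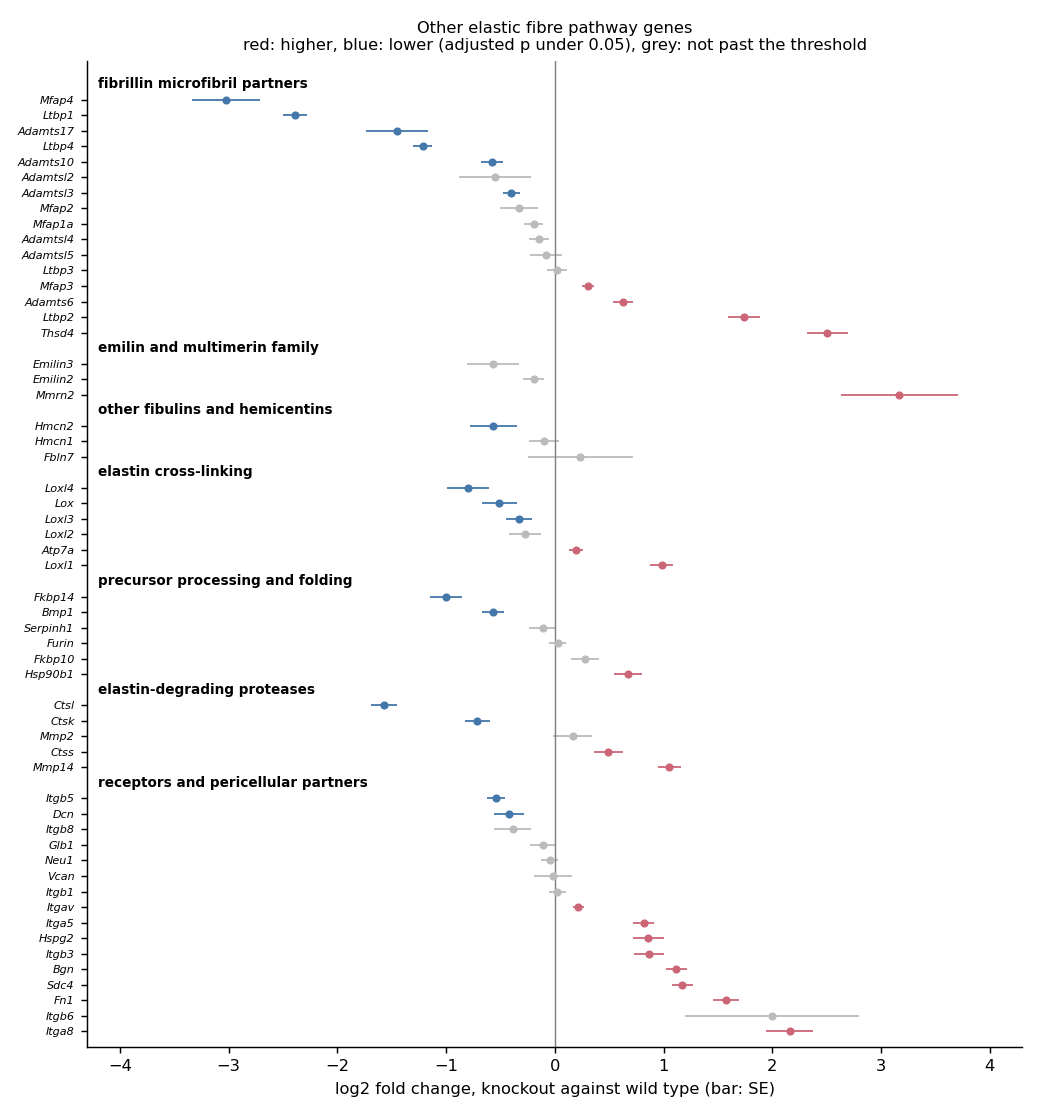
Log2 fold change between knockout and wild type (horizontal axis, bars show the SE) of the 55 tested genes of 7 pathway lists, red where higher, blue where lower and grey where not past the threshold. Each list but the smallest 2 holds both red and blue genes.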

How the data were processed

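RNA sequencing counts of 16 libraries were used. Per the file headers each deposited file holds matched counts per Ensembl gene, which were raw whole numbers. Per the submitters' processing notes the build was GRCm39 and the tools included kallisto and featureCounts, with no role, version or strand setting given. Of 25719 identifiers, 25614 were matched to symbols. Chromosomes, exon overlaps and exon lengths came from GENCODE M21 (GRCm38), and promoter positions from RefSeq (GRCm38.p6), not from the build of the counts.

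Groups followed the genotype in the labels. edgeR 4.0.16 in R 4.3.3 was run with its default expression filter, TMM factors, robust dispersions and a quasi-likelihood F test, two-sided, with genotype as the only term. The SE is the log2 fold change over the root of F. Log2 CPM used a prior count of 2. Ratios of members were taken after adding 0.5 to each count and tested with two-sided exact permutation tests. A marker level is the mean log2 CPM of the tested markers. A count of 3 corresponds to between 0.145 and 0.336 CPM on TMM-scaled library sizes, which covers counting error only.

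All 10 members were named, and of each pathway list the called genes with the 2 largest changes in each direction and a mean log2 CPM of at least 1. Other genes were chosen after their values were seen. The members and lists were chosen with earlier results of these data known. The fit was tested on simulated data. Alternatives were DESeq2 1.42.0 size factors and Wald test, total counts, TMM without the 20 most abundant genes, no filter, a mean count of at least 10, limma 3.58.1 voom with quality weights, non-robust dispersions, marker levels as covariates, the replicate number as a block, and each library left out. Leaving out the 4 libraries with a muscle marker level above 8 was chosen after seeing the data.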

Additional observations from a re-analysis of the deposited data

Results flagged for a closer look

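Among 72 checks of 8 libraries each over the named genes and ratios, 4 found a lowest library standing apart from the others, where chance gives about 1 in 20 checks. For Fbln1, knockout library 5 was lowest at 3.91 log2 CPM, with the next knockout library at 4.66 and the highest at 5.30. For Fn1, wild type library 8 was lowest at 9.95 log2 CPM, with the next at 10.37. For Lox, wild type library 3 was lowest at 11.12 log2 CPM, with the next at 11.69; type I collagen also took the smallest share of counts in that library among the wild type, 12.0%. For Loxl1, wild type library 2 was lowest at 4.86 log2 CPM, with the next at 5.24. No cause was tested.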

How the results depend on the processing

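Over 28 alternatives, between 5 and 9 of the 10 genes passed the threshold (9 with total counts, 5 with the mural marker level, 6 or 7 with any 1 library left out), and Fbln1, Fbln2, Fbln5, Efemp1 and Efemp2 passed in the same direction in all of them. Of all tested genes 7151 passed, against 9685 with total counts, 6101 without the 4 libraries richest in muscle RNA and 4531 with the mural marker level as a covariate; leaving out 1 library gave between 6790 and 7151. Between 26 and 37 pathway genes passed. Reversed were Fbn1 with total counts (0.28), and Fbn2 (-0.42) and Dcn (0.029) with the mural marker level. Eln (0.042 with total counts) and Fbn1 (0.059 with the mural marker level, 0.12 without the 4 libraries richest in muscle RNA) changed sign without passing. With total counts the median log2 fold change over all tested genes was 0.32, against 0.02 with TMM. The cause of the changes with the mural marker level or without the 4 libraries was not tested. The mural marker level nearly separated the genotypes, so results with it as a covariate can hardly tell it apart from genotype. Without the 4 libraries richest in muscle RNA the difference of the Mfap5 to Fbn1 ratio was 0.37 and no longer passed. Replicate numbers did not pair the libraries: deviations of same-numbered libraries correlated between -0.40 and 0.39. With the replicate block 7010 genes passed, 6 of the 10 members and 37 pathway genes; Fbn2 did not pass (1.52, adjusted p = 0.0936). In the sign-flip test over the same numbers, the smallest p of which is 0.00781, the ratios of Fbn2 to Fbn1 (1.68, adjusted p = 0.0684) and of Mfap5 to Fbn1 (0.52, adjusted p = 0.0521) did not pass. Among the 10 members depth limits Fbn2 most, with as few as 13 counts in a library.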

Other observations

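Markers of fibroblasts of the tendon sheath and of the tissue around vessels, cells in which Mfap5 is also known to be expressed, moved in both directions. Of 10 such genes, 4 passed the threshold, where 48.3% of all tested genes did: 2 were higher in the knockout (Dpp4 and Cd34), 2 lower (Clec3b and Prg4) and 6 did not pass. Pi16 stood at 365 ± 79.6 CPM in knockout libraries, against 322 ± 69.5 CPM in wild type ones (SD, n = 8; log2 fold change 0.18, edgeR adjusted p = 0.308), and Pdgfra differed by 0.11 (adjusted p = 0.576). Prg4, which encodes lubricin, fell from 4458 ± 551 to 1575 ± 343 CPM (-1.50, SE 0.124). The summed level of the list did not overlap between genotypes, at 3294 to 4596 CPM in knockout libraries, against 5743 to 7141 CPM in wild type ones. Prg4 was the largest part of that sum in both groups, so the sum does not show a fall of the list as a whole.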
